A study of Mus musculus with 20 samples.

Results

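Genes of neutrophil recruitment and its partner cytokines were followed through a set of 20 mouse melanoma arrays, 8 in number: the chemokines Cxcl1, Cxcl2, Cxcl3 and Cxcl5, the interleukins Il6, Il1a and Il1b, and the growth factor Csf3. They were taken by gene symbol from a table of 19504 named genes, and all 8 were found, each with a single row, so no choice between rows was needed. The rule used symbols and not measured values, but the list of members was drawn up with earlier results of these data known. The tumors arose in mice of 2 genotypes. In both, Cre recombinase under the melanocyte promoter Tyr (Tyr::CreERT2) was switched on with 4-hydroxytamoxifen on the skin, 5 mg/ml in acetone, on postnatal days 2.5 and 3.5, and it recombined BrafCA/CA so that melanocytes expressed the oncogenic kinase BRAF V600E. The skin of both genotypes also received a single UVB dose of 6.24 kJ/m2 on day 3.5. The genotype B (Tyr::CreERT2;BrafCA/CA) carried nothing else. The genotype B;p38α, which carries p38αlox/lox in addition, also lost the stress kinase p38α, encoded by Mapk14, in the recombined cells. Leukocytes do not use the Tyr promoter, so by design the deletion is not aimed at CD45+ cells. The comparison there is between CD45+ fractions from tumors of different genotype. RNA came from complete tumors (5 B, 3 B;p38α), from cells held by magnetic CD45 beads (CD45+, leukocytes, 3 and 3) and from the cells that were not held (CD45-, tumor and stroma, 3 and 3), all at endpoint. Cells for sorting were first freed from the tissue by mechanical and enzymatic dissociation and complete tumors were not, so dissociation and sorting cannot be told apart in any comparison with complete tumors.

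CXCL1, CXCL2, CXCL3 and CXCL5 are small secreted chemokines with a Glu-Leu-Arg motif, and all signal through the receptor CXCR2, which draws neutrophils out of the blood. Interleukin 1 alpha and beta act through the receptor IL1R1 and switch on NF-κB in stroma, epithelium and myeloid cells, which induces the CXCL chemokines, interleukin 6 and G-CSF, the product of Csf3. Interleukin 1 beta must be cut by an inflammasome before it is active, so its mRNA reports priming and not release. The mRNAs of most of these genes are short-lived, carry AU-rich elements bound by proteins such as tristetraprolin (Zfp36), and are stabilized by the p38 and MK2 kinases. They are also among the genes that myeloid and stromal cells induce quickly when tissue is disrupted.

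The chemokine genes are neighbors. Among measured genes on mouse chromosome 5 the order is Cxcl5, Ppbp, Pf4, Cxcl3, Cxcl15, Cxcl1 and Cxcl2, and Il1a and Il1b lie next to each other on chromosome 2. RefSeq promoters (GRCm38.p6) were matched by symbol for 6 members, and Cxcl5 and Csf3 had no entry. The motif GGANTTTCC, bound by NF-κB, was searched on both strands in the 250 bases before each start and was found in 4 of the 6, in Cxcl1, Cxcl2, Cxcl3 and Il6, always on the gene's own strand. In the same window 1.07% of all 32851 promoters held it. The AP-1 motif TGANTCA, which shares no bases with these matches, was found in Il1a and Il6 and in 6.75% of all promoters. The 120 bases before each start are shown for the 4 genes with the first motif, which is in capitals, because these are the members whose levels in CD45+ cells are described most closely further on. All are on the plus strand.
Cxcl1, chr5:90891125-90891244: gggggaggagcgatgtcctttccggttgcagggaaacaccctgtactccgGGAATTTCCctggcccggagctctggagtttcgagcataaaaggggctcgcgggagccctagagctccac
Cxcl2, chr5:90903779-90903898: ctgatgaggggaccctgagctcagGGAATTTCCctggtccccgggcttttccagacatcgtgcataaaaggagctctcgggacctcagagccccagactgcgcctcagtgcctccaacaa
Cxcl3, chr5:90785981-90786100: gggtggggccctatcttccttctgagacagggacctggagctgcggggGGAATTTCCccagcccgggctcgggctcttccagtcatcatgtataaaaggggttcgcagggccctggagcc
Il6, chr5:30012994-30013113: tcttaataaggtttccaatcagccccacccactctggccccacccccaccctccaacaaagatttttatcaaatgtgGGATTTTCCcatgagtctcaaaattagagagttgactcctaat
The match began 70 bases before the start in Cxcl1 (-70 to -62), and lay at -96 to -88 in Cxcl2, -72 to -64 in Cxcl3 and -43 to -35 in Il6. In the 3 chemokine promoters it sat inside an identical run of 11 bases, GGGAATTTCCC, and Cxcl1 and Cxcl2 shared 14 bases there. A match describes the letters only.

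Values are log2 expression from RMA, so a difference of 1 is a doubling, and they are compared for the same gene across samples, not between genes. Replicates are called biological in the labels, which do not give the number of animals behind them, and a p-value therefore refers to the scatter of these samples alone, technical scatter included. The labels also do not say whether CD45+ and CD45- samples came from the same tumors, and the main tests treated all samples as independent. No detection calls came with the values, so a low level cannot be told from background, and a filter on dim genes would remove Cxcl5 and Il1a. B CD45- replicate 1 stood apart, with the lowest median correlation to its own group (0.91, against 0.94 to 0.98 for the other 19 arrays), and the first and second B;p38α CD45+ arrays were closer to each other (r = 0.99) than any other pair of 1 group. Ptprc, which encodes CD45, was 11.74 to 12.14 in B and 11.20 to 11.95 in B;p38α CD45+ samples, 9.66 to 9.95 and 6.80 to 8.63 in the CD45- samples, and 9.41 to 10.46 in complete tumors. Fibroblast markers averaged 11.20 in B and 11.22 in B;p38α CD45+ samples, against 11.89 and 11.67 in CD45- samples. Endothelial markers averaged 9.63 and 8.79 in CD45+ samples, against 8.10 and 7.77 in CD45- samples. CD45+ values are therefore not read as those of leukocytes alone, and the part of other cells in them was not tested. The B;p38α minus B difference of Mapk14 itself was -0.27 in complete tumors (limma, adjusted p = 0.81), -0.18 in CD45+ cells (0.67) and -0.16 in CD45- cells (0.80). The mean of 10 melanocyte markers per sample was 5.84 to 7.75 in complete B tumors, 5.98 to 6.79 in B CD45+ and 6.08 to 6.79 in B CD45- samples, and 6.09 to 6.35, 6.03 to 6.16 and 5.81 to 5.95 in the same compartments of B;p38α. Without detection calls the presence of single markers in the CD45- cells cannot be told from these values.

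**Figure D1:**
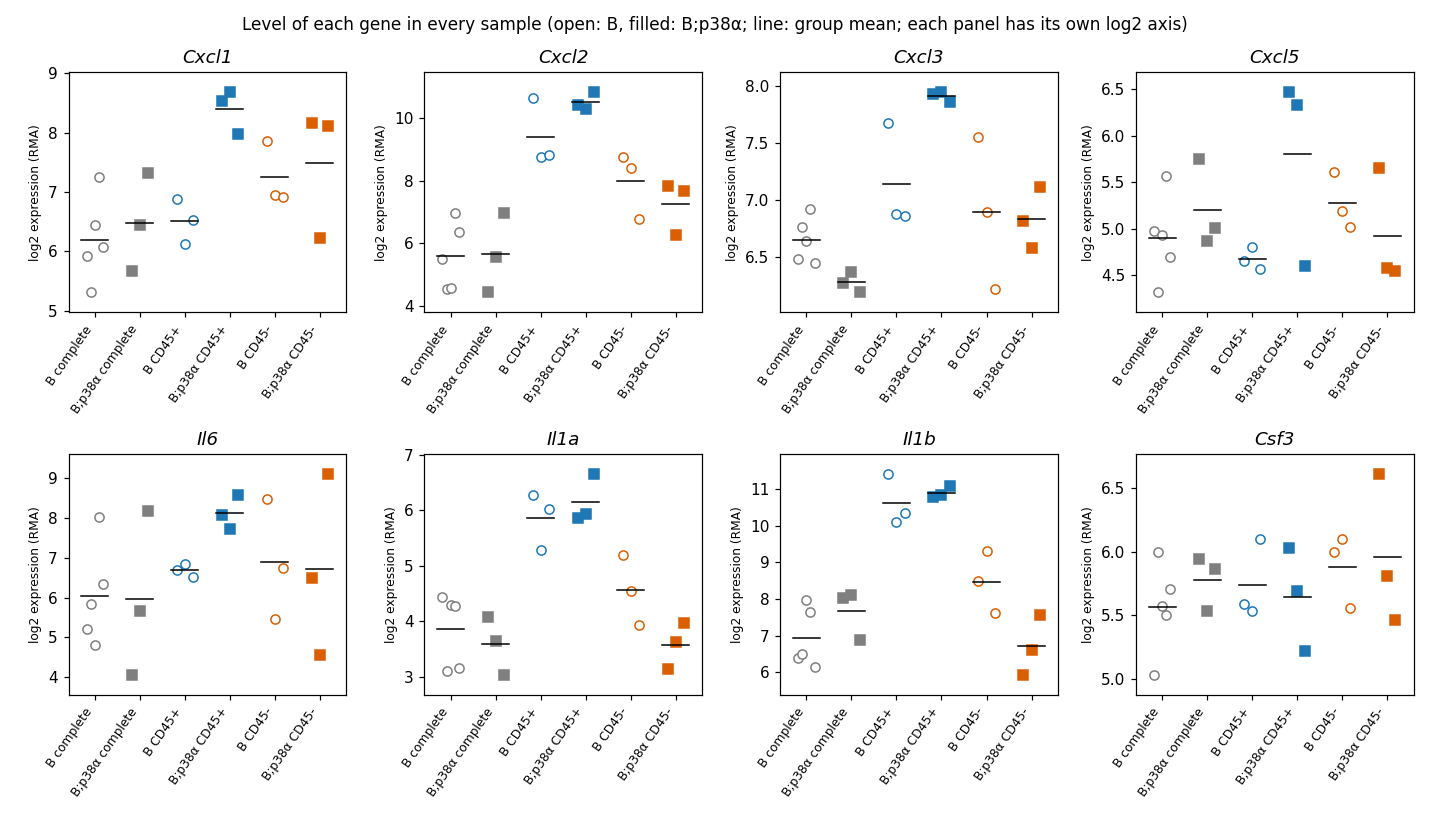
Each panel shows the log2 expression (vertical axis, own scale) of 1 gene in every sample of the 6 groups (horizontal axis), with open circles for B, filled squares for B;p38α and a line at each group mean. Il1b, Il1a and Cxcl2 stand high in both CD45+ groups, and Cxcl1, Cxcl3 and Il6 are higher in all 3 B;p38α CD45+ samples than in all 3 B CD45+ samples.

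The plot of levels by sample shows that Il1b, Il1a, Cxcl2 and Cxcl3 had their 2 highest group means in the CD45+ groups, and that the other 4 genes did not. The B;p38α CD45+ group had the highest mean of the 6 groups for 7 of the 8 genes, all but Csf3, although in 6 of those 7 its samples overlapped with the next group in the order. Cxcl3 was the exception, with B;p38α CD45+ samples above every other sample of the series. Group means spanned 4.94 for Cxcl2 and 4.20 for Il1b, but 1.13 for Cxcl5 and 0.40 for Csf3, against a spread between samples of a group (SD pooled over groups) of 0.99, 0.71, 0.58 and 0.38.

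Interleukin 1 mRNA was highest in the CD45+ samples. Il1b, made mostly by primed monocytes, macrophages and neutrophils, stood at 11.41, 10.12 and 10.35 in B CD45+ and 10.79, 10.84 and 11.08 in B;p38α CD45+ samples. In CD45- samples it stood at 8.50, 9.31 and 7.62 in B and 5.93, 6.61 and 7.56 in B;p38α. Complete tumors lay between 6.15 and 7.98 in B and at 8.03, 8.10 and 6.89 in B;p38α. All 6 CD45+ samples were above all 14 others. The CD45+ minus CD45- difference was 3.18 ± 0.35 (SE, 6 against 6 samples, fold 9.04, limma, adjusted p = 0.000134), and against complete tumors it was 3.46 ± 0.36 (adjusted p = 3.44e-06).

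Il1a, the interleukin 1 form that is active without processing and acts as an alarm signal, followed the same compartments. Its CD45+ values were 6.28, 5.28 and 6.03 in B and 5.87, 5.94 and 6.65 in B;p38α, against 5.20, 4.54 and 3.93 and then 3.14, 3.63 and 3.97 in the respective CD45- groups. No CD45+ sample fell as low as the highest CD45- sample. The difference was 1.94 ± 0.27 (SE, limma, adjusted p = 0.00059) from CD45- cells and 2.28 ± 0.28 (adjusted p = 1.82e-05) from complete tumors.

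Cxcl2, the chemokine of activated macrophages and neutrophils, had the widest range of the 8. It was 10.64, 8.76 and 8.83 in B CD45+ samples and 10.42, 10.30 and 10.85 in B;p38α CD45+ samples. In CD45- samples it was 8.76, 8.42 and 6.79 in B and 7.83, 6.28 and 7.67 in B;p38α, and in complete tumors 5.50, 4.55, 4.57, 6.97 and 6.36 in B and 4.43, 5.55 and 6.98 in B;p38α. Both sorted compartments were thus higher than complete tumors, CD45+ more so. The difference was 4.35 ± 0.49 for CD45+ (SE, fold 20.3, limma, adjusted p = 7.58e-06) and 2.00 ± 0.49 for CD45- (fold 4.01, adjusted p = 0.0144), and CD45+ exceeded CD45- by 2.34 ± 0.44 (adjusted p = 0.0045).

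**Figure D2:**
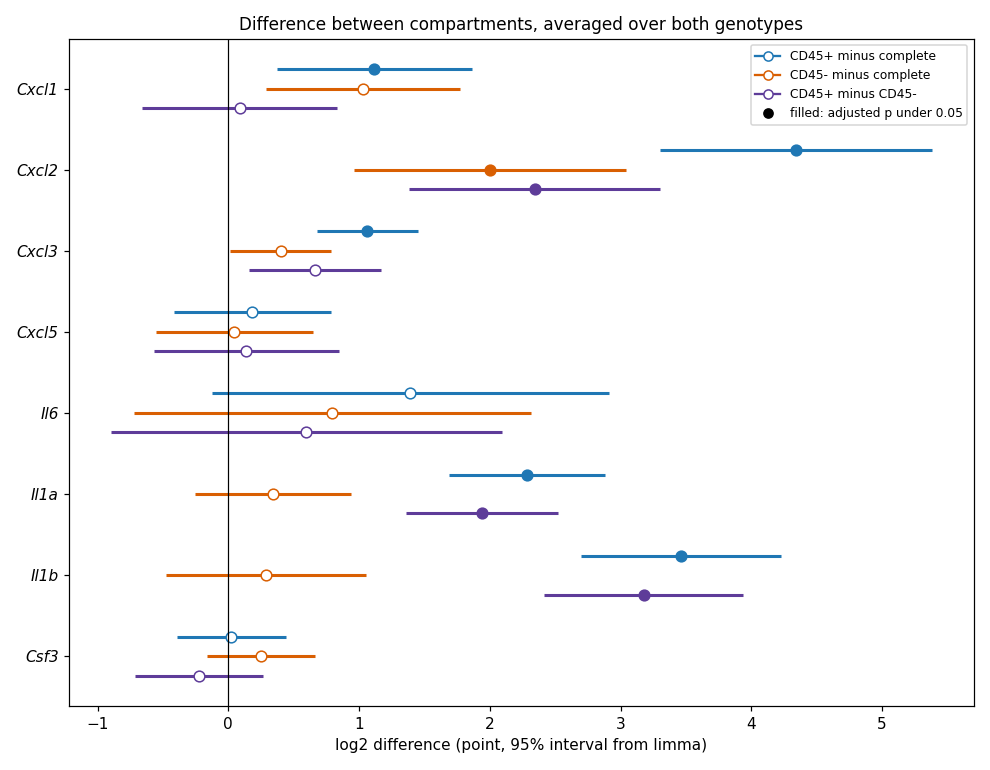
Points are log2 differences between compartments averaged over both genotypes (horizontal axis) for each gene (vertical axis), lines are 95% intervals from limma, and filled points have an adjusted p under 0.05. All genes but Csf3 are to the right of 0 in both comparisons of CD45+ cells, and Il1a, Il1b and Cxcl2 are filled in both. In the CD45- against complete comparison Cxcl2 is the only filled point.

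Cxcl1 and Cxcl3, made by stroma and epithelium as well as by myeloid cells, did not pass between the sorted compartments in the average over both genotypes. For Cxcl1 that average was 0.09 ± 0.34 (CD45+ minus CD45-, SE, 95% interval -0.66 to 0.83, limma, adjusted p = 0.92), and it joined opposite directions. In B the CD45+ mean of 6.51 was below the CD45- mean of 7.25. The samples did not overlap, but the highest CD45+ value was 6.89 and the lowest CD45- value 6.92. The share of all genes apart in this way was not counted. In B;p38α the CD45+ mean of 8.40 was above the CD45- mean of 7.49, with overlap. The test of that turn is the interaction given further on, which did not pass. It was higher than in complete tumors by 1.12 ± 0.35 in CD45+ cells (adjusted p = 0.0267) and by 1.03 ± 0.35 in CD45- cells (adjusted p = 0.0632). The first of these calls depended on single samples. It was kept in 8 of 14 fits that each left out 1 sample and lost without B;p38α complete replicate 1 (difference 0.92, adjusted p = 0.0780) or 2, B CD45+ replicate 1 or 3, or B;p38α CD45+ replicate 1 or 2. The second was gained without B complete replicate 4, B;p38α complete replicate 3 or B;p38α CD45- replicate 2 (1.35, adjusted p = 0.0158). Cxcl3 was higher in CD45+ cells than in complete tumors by 1.06 ± 0.18 (adjusted p = 0.000396). Its difference from CD45- cells was 0.66 ± 0.23 (adjusted p = 0.0923), and 0.83 with an adjusted p of 0.0171 without B CD45- replicate 1, the array that stood apart. From complete tumors to CD45- cells it was 0.40 ± 0.18 (adjusted p = 0.159, and 0.0293 without B CD45- replicate 3).

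Il6, made by fibroblasts, endothelium and macrophages, varied most within groups, with an SD from 0.17 to 2.28. In complete B tumors it was 5.21, 5.85, 4.81, 8.02 and 6.35, and in CD45- samples 8.48, 5.45 and 6.75 in B and 6.49, 4.56 and 9.10 in B;p38α. Single samples were up to 4.53 apart within a group. Its difference between CD45+ cells and complete tumors was 1.39 ± 0.72 (SE, limma, adjusted p = 0.175), and between the sorted compartments 0.60 ± 0.68 (adjusted p = 0.69). Cxcl5, a chemokine mostly of epithelial cells, lay between 4.31 and 6.47 in all 20 samples. Averaged over both genotypes its compartment differences were at most 0.18 (adjusted p of at least 0.69), but here too the direction turned. The CD45+ mean was 4.67 against 5.27 in CD45- cells of B, without overlap (highest CD45+ 4.80, lowest CD45- 5.01). It was 5.80 against 4.92 in B;p38α, with overlap. Here too the share of all genes apart in this way was not counted. Csf3, the growth factor of neutrophil precursors, lay between 5.04 and 6.61, with at most 0.25 between compartments (adjusted p of at least 0.42).

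Counted together, 3 of the 8 genes passed upward between CD45+ and CD45- cells, where 7.79% of all genes passed upward and 4.37% downward. Against complete tumors 5 of 8 passed upward in CD45+ cells, where 12.9% of all genes passed upward and 12.9% downward, and 1 of 8 in CD45- cells, where 6.24% and 6.47% passed. No member passed downward in any of the 3. In bulk samples such as these, more cells of a type and more RNA per cell cannot be told apart.

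Genes induced by tissue disruption moved with the compartments. Of 24 immediate early and stress genes (Fos, Jun, Egr1, Atf3 and others), 23 passed upward in CD45+ cells against complete tumors and 18 in CD45- cells, with medians of 1.69 and 1.02 against -0.00 and 0.04 over all genes. Hspa1b, a heat shock chaperone, was higher by 3.08 and 1.85, and the transcription factor Fosb by 2.93 and 2.15 (all with an adjusted p under 0.05 in limma). The list's mean level per sample was 8.04 to 8.86 in complete tumors, 9.13 to 9.86 in CD45- and 9.78 to 10.46 in CD45+ samples, without overlap between complete and sorted samples. Their part in the sorted levels of the 8 genes was not tested.

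**Figure D3:**
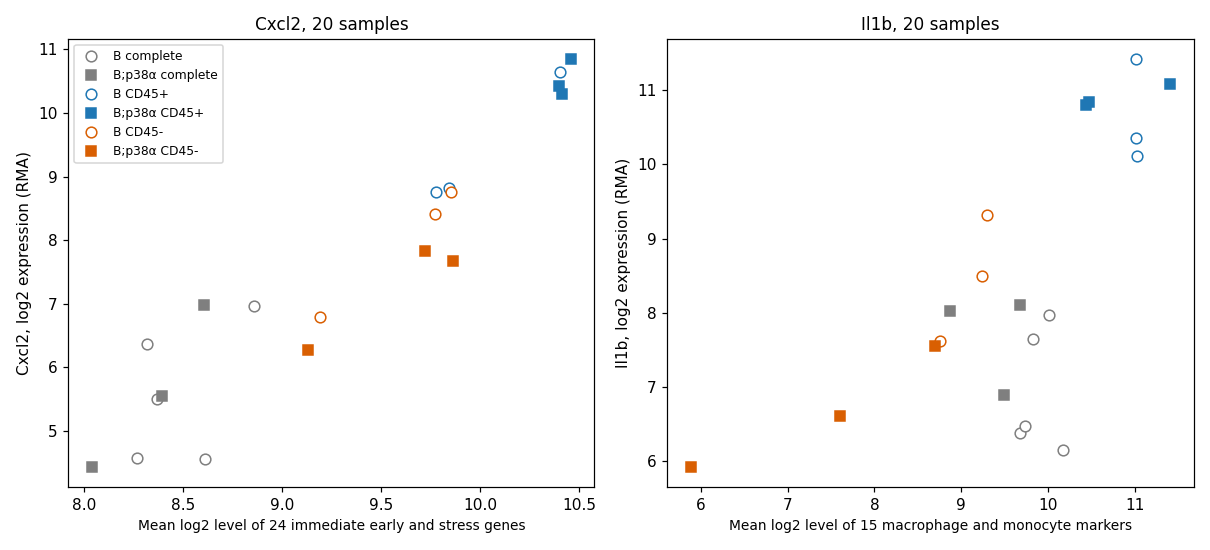
Each point is 1 of 20 samples, coloured by compartment, with open circles for B and filled squares for B;p38α. On the left Cxcl2 (log2) is plotted against the mean log2 level of 24 immediate early and stress genes, and on the right Il1b against the mean of 15 macrophage and monocyte markers. In B;p38α CD45- samples the lowest Il1b, 5.93, is in the sample with the lowest marker mean, 5.89.

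The comparison the study was built for sets the genotypes against each other within a compartment. In CD45+ cells 7 of the 8 genes had a higher mean in B;p38α, and none passed the test over all genes (limma, adjusted p of at least 0.195), where 0% of all 19504 genes passed. At an unadjusted p under 0.05 there were 4 of the 8, Cxcl1, Cxcl3, Cxcl5 and Il6, against 10.8% of all genes. Groups lay apart with B;p38α higher for 3 of 8, Cxcl1, Cxcl3 and Il6, against 9.16% of all genes, and with B;p38α lower for none, against 7.35%. The median of the 8 differences was 0.95, and that of all genes 0.00.

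Cxcl1 had the largest of these differences. It was 6.89, 6.13 and 6.53 in B and 8.54, 8.69 and 7.98 in B;p38α CD45+ samples. The lowest B;p38α sample was 1.10 above the highest B sample. The difference was 1.89 ± 0.27 (SE, n = 3 and 3, 95% interval 1.26 to 2.52, a fold of 3.70), with an adjusted p of 0.195 in limma and place 17 of 19504 by unadjusted p. The two-sided exact permutation p was 0.1, the smallest that 3 against 3 samples allow. Leaving out each sample in turn gave 1.69 to 2.10 (adjusted p 0.063 to 0.77).

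Il6 was 6.69, 6.85 and 6.51 in B and 8.06, 7.72 and 8.57 in B;p38α CD45+ samples, again without overlap. Unlike in the other compartments, samples of a group were close to each other here, with an SD of 0.17 in B and 0.43 in B;p38α. The difference was 1.43 ± 0.24 (SE, interval 0.86 to 2.00, fold 2.70, limma, adjusted p = 0.335, exact permutation p = 0.1), and 1.21 to 1.63 when samples were left out in turn.

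Cxcl3 was 7.68, 6.87 and 6.86 in B and 7.93, 7.95 and 7.86 in B;p38α CD45+ samples. The groups did not overlap, but B replicate 1 lay 0.19 below the lowest B;p38α sample. The difference was 0.78 ± 0.25 (SE, interval 0.20 to 1.35, limma, adjusted p = 0.43). Cxcl2 showed the same arrangement with overlap, since B replicate 1, at 10.64, was above 2 of the 3 B;p38α samples, and its difference was 1.12 ± 0.49 (interval -0.04 to 2.28, adjusted p = 0.47).

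Cxcl5 was 4.65, 4.80 and 4.56 in B and 6.47, 6.33 and 4.59 in B;p38α CD45+ samples. The first 2 of the B;p38α samples were the highest of the series and the last was level with B. The difference of 1.13 ± 0.47 (SE, limma, adjusted p = 0.459) became 1.73 with an adjusted p of 0.041 without that last sample and 0.79 without the first. Those high samples are the pair of arrays that were most alike. Il1a, Il1b and Csf3 differed by 0.29 ± 0.32, 0.28 ± 0.33 and -0.09 ± 0.26 (adjusted p of at least 0.72), with intervals that reached 1.05, 1.06 and 0.52 upward, so a genotype difference of interleukin 1 within CD45+ cells was not detectable with this number of samples.

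**Figure D4:**
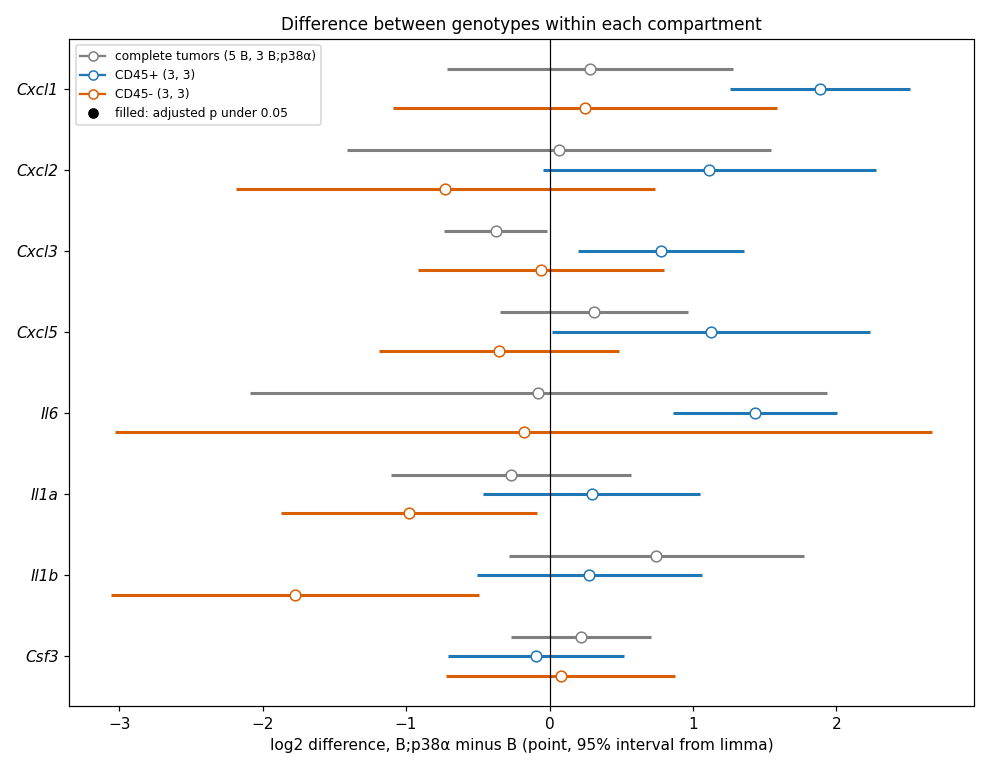
Points are B;p38α minus B differences in log2 expression (horizontal axis) for each gene (vertical axis) in complete tumors (grey), CD45+ (blue) and CD45- cells (orange), with 95% intervals from limma. No point is filled, since no adjusted p is under 0.05, and the CD45+ intervals of Cxcl1, Cxcl3, Cxcl5 and Il6 and the CD45- intervals of Il1a and Il1b leave out 0.

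Values of other gene lists also differed between the genotypes in CD45+ cells. All 24 immediate early and stress genes had a positive difference, with a median of 0.32, and 0 of 24 passed in limma. An unadjusted p under 0.05 was seen for 6 of them, against 10.8% of all genes. Maff, a small partner of AP-1 and NRF2 factors, differed by 1.65 ± 0.45 and Fosb by 0.72 ± 0.31 (limma, adjusted p = 0.412 and 0.467). The list's mean per sample was 10.40, 9.78 and 9.84 in B and 10.40, 10.41 and 10.46 in B;p38α. B replicate 1 was level with the B;p38α samples on this list. It was below all 3 of them for Cxcl1 (6.89), Il6 (6.69) and Cxcl3 (7.68), and above all 3 for Il1b (11.41). For Cxcl2, Il1a, Cxcl5 and Csf3 it was within their range. These are values of 1 sample. The part of stress genes in the genotype differences was not tested. Of the neutrophil markers 8 of 18 had a positive and 10 a negative difference, with a median of -0.26, and the list's mean per sample was 7.09 to 7.36 in B and 6.84 to 7.55 in B;p38α. Of the macrophage and monocyte list 13 of 15 had a negative difference (median -0.27), with a list mean of 11.02 to 11.03 in B and 10.44 to 11.40 in B;p38α. T cell markers were lower in 8 of 8 (median -0.35), melanocyte markers in 9 of 10 (-0.32), keratinocyte markers in 9 of 11 (-0.54) and mast cell markers in 6 of 7 (-0.73). The keratinocyte list mean was 5.16, 6.20 and 6.17 in B and 5.47, 5.28 and 5.33 in B;p38α samples, and the melanocyte list mean 5.98, 6.79 and 6.66 against 6.07, 6.03 and 6.16, so B replicate 1 was lowest on both. The T cell list mean was 6.66 to 7.60 in B and 6.66 to 7.28 in B;p38α, and that of mast cells 8.05 to 9.13 and 7.08 to 9.14. The part of these cell types was not tested. Endothelial markers were lower in 9 of 9, with a median of -0.75 and 0 passing in limma. Of these, 5 had an unadjusted p under 0.05, against 10.8% of all genes. The endothelial list mean was 9.55, 9.56 and 9.78 in B and 8.41, 8.46 and 9.50 in B;p38α samples, without overlap. The part of endothelial cells was not tested either. The mean of 3 Y-linked genes was lower by 3.12 in B;p38α, with 4.30 to 8.67 in B and 2.75 to 3.23 in B;p38α samples. With that mean as a covariate the Cxcl1 difference was 2.41 and the Cxcl2 difference 2.50 (adjusted p = 0.0442 and 0.0472), in a fit in which 250 of all genes passed. The covariate did not overlap between the genotypes in these 6 samples, so that fit rests on the spread within each genotype. The labels name no sex, and in CD45+ cells a difference of sex and a difference of genotype cannot be told apart.

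In CD45- cells the largest genotype differences were those of interleukin 1. No member passed the test over all genes, where 0.0103% passed, which is 2 genes, and 2 of 8 had an unadjusted p under 0.05, Il1a and Il1b, against 6.76% of all genes. Groups lay apart with B;p38α lower for 1 of 8, Il1b, against 5.36% of all genes, and with B;p38α higher for none, against 10.6%. The median of the 8 differences was -0.26, and that of all genes 0.05.

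Il1b stood at 8.50, 9.31 and 7.62 in B and 5.93, 6.61 and 7.56 in B;p38α CD45- samples, with the closest pair of samples 0.06 apart. The difference was -1.78 ± 0.54 (SE, n = 3 and 3, interval -3.06 to -0.49, limma, adjusted p = 0.675, exact permutation p = 0.1, the smallest possible), and -2.20 to -1.36 when samples were left out in turn. Il1a, at 5.20, 4.54 and 3.93 in B and 3.14, 3.63 and 3.97 in B;p38α, differed by -0.98 ± 0.38 (adjusted p = 0.675), and here the groups overlapped. The chemokines and Il6 differed by -0.73 to 0.25 in these cells, with standard errors of 0.36 to 1.21. The interval was -1.09 to 1.59 for Cxcl1, -0.91 to 0.80 for Cxcl3 and -3.03 to 2.67 for Il6. The CD45+ differences of Il6 (1.43) and Cxcl3 (0.78) lay inside the CD45- intervals. Those of Cxcl1 (1.89), Cxcl2 (1.12) and Cxcl5 (1.13) lay above, but they have intervals of their own. The comparison between compartments is the interaction given further on, which no member passed.

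Leukocyte markers had lower values in the same samples. All 15 macrophage and monocyte markers had a negative difference between genotypes in CD45- cells, with a median of -1.73. So had all 10 general leukocyte genes (median -1.24) and all 7 mast cell markers (median -1.46). In limma 0 of them passed, and 9, 7 and 4 had an unadjusted p under 0.05, against 6.76% of all genes. The macrophage list averaged 9.24, 9.30 and 8.75 in the 3 B samples and 5.89, 7.60 and 8.70 in the 3 B;p38α samples, the order in which Il1b stood among the B;p38α samples too. Ptprc itself differed by -1.83. Nlrp3, the sensor of the inflammasome that processes interleukin 1 beta, differed by -1.58 ± 0.59 and Casp1, its protease, by -0.83 ± 0.51, while Tnf differed by -1.54 ± 0.54 (limma, adjusted p = 0.675 for each). The part of remaining leukocytes in the Il1b and Il1a values was not tested. The mean of the Y-linked genes was 6.79, 8.60 and 2.79 in B and 3.32, 8.81 and 3.30 in B;p38α CD45- samples. It was thus mixed within both genotypes here.

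In complete tumors 7 of the 8 genes overlapped between genotypes. No member passed the test over all genes, where 0% of all genes passed, and 1 of 8 had an unadjusted p under 0.05, against 6.61%. That gene, Cxcl3, was 6.49, 6.76, 6.64, 6.92 and 6.45 in B and 6.28, 6.37 and 6.19 in B;p38α tumors. All 3 B;p38α tumors were below all 5 B tumors, a separation that 2.54% of all genes showed in this direction and 1.92% in the other. The difference was small, -0.37 ± 0.16 (SE, interval -0.73 to -0.02, limma, adjusted p = 0.74, two-sided exact permutation p = 0.036, the smallest that 5 against 3 samples allow), and -0.43 to -0.31 when samples were left out in turn. Il1b was 6.38, 6.48, 7.98, 7.64 and 6.15 in B and 8.03, 8.10 and 6.89 in B;p38α tumors, a difference of 0.75 ± 0.46 (adjusted p = 0.82). The other 6 differed by -0.27 to 0.31, and their intervals reached -2.09 to 1.93 for Il6. Macrophage markers were lower in 14 of 15 (median -0.65), with 0 passing in limma and 9 at an unadjusted p under 0.05. The mean of the Y-linked genes was 8.93, 3.72, 3.39, 9.29 and 2.76 in B and 2.99, 3.85 and 3.35 in B;p38α tumors, so it was high in 2 B tumors and in no B;p38α tumor.

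Whether a genotype difference was itself different between compartments was tested with an interaction term over all 20 samples, and no member passed in any of the 3 tests (limma, adjusted p of at least 0.47), where 0% of all genes passed in each. Between CD45+ and CD45- cells 5 of the 8 had an unadjusted p under 0.05, against 2.34% of all genes: Il1b by 2.05 ± 0.77, Cxcl1 by 1.64 ± 0.75, Cxcl5 by 1.48 ± 0.60, Il1a by 1.28 ± 0.60 and Cxcl3 by 0.83 ± 0.39 (adjusted p = 1.00 for each). Between CD45+ cells and complete tumors there were 2 of 8, Cxcl3 with 1.15 ± 0.37 and Cxcl1 with 1.61 ± 0.71, against 7.22% of all genes. Between CD45- cells and complete tumors there was 1 of 8, Il1b with -2.52 ± 0.73 (adjusted p = 0.47), against 9.69%. These tests share samples and their counts are not independent of each other or of the differences above.

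The partners of the 8 genes were followed through lists chosen by function. Of 17 receptors, decoys and close relatives, 7 passed upward and 2 downward between CD45+ and CD45- cells. Csf3r, the G-CSF receptor of neutrophils, was higher by 2.80 ± 0.33, Pf4, a platelet and macrophage chemokine encoded among the Cxcl genes, by 2.47 ± 0.33, the interleukin 1 antagonist Il1rn by 2.42 ± 0.38 and the interleukin 6 receptor Il6ra by 2.40 ± 0.22 (SE, limma, adjusted p of at most 0.0016). Between genotypes 0 of the 17 passed in any compartment, with 4, 2 and 3 at an unadjusted p under 0.05 in complete tumors, CD45+ and CD45- cells. In CD45+ cells the largest differences were those of the decoy receptor Il1r2, 1.00 ± 0.51, and the co-receptor Il1rap, 0.58 ± 0.26 (adjusted p = 0.486 and 0.473). In CD45- cells they were Ackr1, the chemokine-binding receptor of venules, at 1.83 ± 0.61, and Csf3r at -1.27 ± 0.56, and in complete tumors Pf4 at -1.26 ± 0.39 and Il6ra at -0.90 ± 0.21 (adjusted p of at least 0.675). Cxcr2, the receptor shared by the 4 chemokines, averaged 7.24 and 6.87 in B and B;p38α CD45+ cells.

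Of 6 genes of interleukin 1 processing, 3 passed upward in CD45+ against CD45- cells, Nlrp3 by 3.41 ± 0.35, the adaptor Pycard by 1.14 ± 0.13 and the pore protein Gsdmd by 0.89 ± 0.19 (limma, adjusted p of at most 0.0099). Between genotypes 0 of 6 passed, with 1 at an unadjusted p under 0.05 in each compartment. Casp4, the mouse caspase-11 of the noncanonical inflammasome, had the largest difference in CD45+ cells, 0.98 ± 0.25, and in complete tumors, 1.22 ± 0.35 (adjusted p = 0.412 and 0.716).

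Of 25 measured response genes of NF-κB, interleukin 1 and interleukin 6, 12 passed upward and 0 downward between CD45+ and CD45- cells, 20 upward in CD45+ cells and 8 upward in CD45- cells against complete tumors. Tnf, another early cytokine of macrophages, was higher by 2.85, 4.90 and 2.05 in the 3 comparisons, and Tnfaip3, the NF-κB brake A20, by 2.20, 3.67 and 1.47 (limma, adjusted p of at most 0.0089). Between genotypes 0 of 25 passed in each compartment, with 0, 6 and 2 at an unadjusted p under 0.05 in complete tumors, CD45+ and CD45- cells. In CD45+ cells 19 of 25 differences were positive with a median of 0.39, led by Saa3, an acute phase protein, at 1.51 ± 0.60 (adjusted p = 0.451), and by Cxcl10, an interferon-induced chemokine (adjusted p = 0.395). In CD45- cells the median was -0.03 and in complete tumors 0.02.

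Of 17 genes of the p38 and MK2 pathway and of AU-rich mRNA decay, 7 passed upward between CD45+ and CD45- cells. Zfp36, whose protein tristetraprolin marks these mRNAs for decay, was higher by 1.69 ± 0.35, Zc3h12a, the RNase regnase-1, by 1.08 ± 0.22, the kinase Mapkapk3 by 0.85 ± 0.15 and the p38 phosphatase Dusp1 by 0.83 ± 0.23 (limma, adjusted p of at most 0.0365). Between genotypes 0 of these 17 passed in each compartment, with 3, 1 and 1 at an unadjusted p under 0.05 in complete tumors, CD45+ and CD45- cells. Zfp36 differed by 0.47 ± 0.27 in CD45+ cells, Mapkapk2, the kinase MK2, by 0.73 ± 0.24 in CD45- cells and Map2k6, a kinase that activates p38, by 0.90 ± 0.16 in complete tumors (adjusted p = 0.525, 0.675 and 0.604).

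The genes whose levels ran most like Cxcl1 over the 20 samples, by Pearson correlation of log2 values, were Gm13034 (r = 0.82), Ccn1 (0.81), Fos (0.80), Maff (0.79) and Ifna4 (0.77). Among the other members Il6 was ninth with 0.76 and Cxcl2 held place 17 of 19503 with 0.71. After group means were taken away, so that only differences between samples of a group remained, Atf3 (0.82), Fos (0.80), Serpina3n (0.80), Serhl (0.79) and Mlf1 (0.79) came first, with Cxcl2 (0.74) at place 12 and Il6 (0.73) at place 13. Il1b ran with another set, Tagap (0.97), Slc15a3, Bcl2a1c, Nlrp3 and Havcr2 (0.95 each), and Il1a was at place 12. Its deviations within groups were nearest to those of Bcl2a1c (0.87), Itgae (0.81), Mcemp1 (0.80), Wdfy4 (0.80) and Clec9a (0.79). These correlations are descriptions over 20 arrays that share compartment, dissociation and normalization.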

How the data were processed

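Expression was measured on arrays of 20 mouse melanoma samples. The authors deposited log2 expression, obtained with RMA (no version named) per the submitters' processing notes. The genome build of the platform, and which arrays were normalized together, are not given in the sources used here. Of its 21244 rows, without missing values, 19570 had 1 gene symbol in the platform annotation. Where a gene had several rows, the row with the highest mean was kept, which left 19504 genes, unfiltered.

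Genotypes were compared within each compartment, CD45+ and CD45- cells over the 4 sorted groups, and sorted cells with complete tumors and the interactions over all 6 groups, with limma 3.58.1 in R 4.3.3, tested on simulated data. A gene passed at a p under 0.05 after Benjamini-Hochberg adjustment over all genes. Compartment differences average both genotypes. Members, gene lists and tests were chosen with earlier results of these data known. All members were named, Mapk14, and from each pathway list up to 4 genes past the threshold with the largest difference. Where none passed, up to 2 of the largest were named, and not for every list and compartment. Neighbors of a gene in expression were the 5 highest correlations. Alternatives were a fit over all 6 groups, a replicate block, a dim filter at the 30th percentile, repeated quantile normalization, array weights, trended robust variance, every row, a Y-linked covariate, leaving out each array, and, added after seeing the data, averaging the 2 most similar arrays. Promoters are from RefSeq. Figures used matplotlib 3.10.9 in Python 3.11.15. The number of arrays limits the precision.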

Additional observations from a re-analysis of the deposited data

Results flagged for a closer look

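Among the 8 members, Cxcl3 was the gene whose genotype difference lay in opposite directions in separate compartments, with every sample of a group apart. It was 0.78 higher in all 3 B;p38α CD45+ samples than in the B samples and 0.37 lower in all 3 B;p38α complete tumors than in the 5 B tumors. The difference between these differences was 1.15 (limma interaction, unadjusted p = 0.0058, adjusted p = 0.68), and 1.01 to 1.42 when each sample was left out in turn. In that test 7.22% of all genes had an unadjusted p under 0.05. Cxcl3 was flagged by this same separation, so the p-value is not separate evidence. The share of all genes apart in opposite directions was not counted. Among the 5 complete B tumors no sample stood far from the others in any of the 8 genes by Dixon's test.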

How the results depend on the processing

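Il1b, Il1a and Cxcl2 kept their calls in both CD45+ comparisons in every fit that left out a sample, as did Cxcl2 in CD45- cells against complete tumors. Of the 8 genes, the count that passed between genotypes in CD45+ cells went from 0 to 5 with array weights, 2 with the Y-linked covariate and 0 to 1 when samples were left out (1 without B;p38α CD45+ replicate 3). Over all genes that count went from 0 to 2 in the fit of all 6 groups, 7 without dim genes, 5303 with array weights, 5 with the trended robust variance, 250 with the Y-linked covariate and 0 to 30 when samples were left out, and the members' median from 0.95 to 1.21 with array weights and 1.28 with the covariate. Array weights also gave 4 genes between genotypes in CD45- cells, 4275 and 7769 in CD45+ cells against CD45- cells and complete tumors, and 761, with 1 member, for the interaction of CD45+ cells with complete tumors. In CD45- cells 0 genes passed between genotypes in the fit of all 6 groups, 1 with the covariate and 0 to 4 with samples left out, and against complete tumors 2 members passed without dim genes and 1 to 2 with samples left out, with 1459 to 2990 of all genes. In complete tumors 0 to 49 genes passed with samples left out (49 without B complete replicate 4). For the interactions the ranges were 0 to 1, 0 to 16 and 0 to 37. The members' median compartment difference, CD45+ cells minus complete tumors, was 1.26 in the main fit and ran from 0.99 to 1.64.

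Correlations of same-numbered deviations had both signs, so the replicate number is no sure guide to pairs. B CD45+ replicates 1 and 2 correlated at 0.60 and 0.62 with a B CD45- sample of another number. Whether CD45+ and CD45- samples shared tumors therefore stays unknown. As a replicate block the number gave 27 genes in complete tumors, 1484 in CD45- cells against complete tumors, and 14 and 27 for the interactions with complete tumors. With it Il6 passed in CD45+ cells against complete tumors (1.77, adjusted p = 0.0443 in limma) and Cxcl3 between sorted cells (adjusted p = 0.0461), and Il6 in complete tumors turned to 0.68. It changed no other member's call.

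Values that changed sign had not passed. In complete tumors Il6 turned to 0.41 with array weights and 0.31 with the covariate, and Il1a to 0.039 with the covariate. With array weights Il1a in CD45+ cells was -0.012, and Cxcl3 and Il6 in CD45- cells were 0.13 and 0.27. Between sorted cells Cxcl1 was -0.0098 with the covariate, Cxcl5 -0.012 with similar arrays averaged and Csf3 0.017 with array weights. Against complete tumors Csf3 in CD45+ cells was -0.035 with repeated normalization and -0.031 with similar arrays averaged, and Cxcl5 in CD45- cells -0.038 and, with array weights, -0.029. With single samples left out, genotype differences in complete tumors were -0.14 to 0.68 for Cxcl1, -0.59 to 0.68 for Cxcl2, -1.18 to 0.87 for Il6 and -0.52 to 0.0066 for Il1a. In CD45+ cells Csf3 was -0.29 to 0.12, and in CD45- cells Cxcl1 was -0.086 to 0.89, Cxcl3 -0.39 to 0.28, Il6 -1.37 to 0.90 and Csf3 -0.25 to 0.33. Cxcl1 and Cxcl5 between sorted cells were -0.23 to 0.25 and -0.030 to 0.44, Csf3 and Cxcl5 against complete tumors -0.073 to 0.13 and -0.14 to 0.18, and the Csf3 interaction of sorted cells -0.42 to 0.15. The cause of these shifts was not tested. Averaging the similar arrays left Cxcl1 in CD45+ cells against complete tumors at an adjusted p of 0.0583 in limma.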
